A study of Mus musculus with 15 samples.

Results

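The miR-302 and miR-290 clusters are the miRNA clusters best known from pluripotent mouse cells, and 8 of their mature miRNAs were followed here: mmu-miR-302a-3p, mmu-miR-302b-3p, mmu-miR-302c-3p, mmu-miR-302d-3p and mmu-miR-367-3p from the first cluster, and mmu-miR-290-5p, mmu-miR-294-3p and mmu-miR-295-3p from the second. They were chosen by name (mmu stands for the mouse and is left out below) among the 1122 mouse miRNAs on the array. The cells were mouse epiblast stem cells (EpiSC), a primed pluripotent cell type, derived from Pitx3-GFP mice, in which a fluorescent reporter marks cells that use the dopaminergic gene Pitx3. All groups came from this reporter background and were put through differentiation: cells at day 5, before any morphogen; treated cells at day 9 and day 14, which received the morphogens SHH and FGF8 from day 5 to induce dopaminergic neurons; and control cells at day 9 and day 14, kept without these morphogens. Each of the 5 groups had 3 arrays of small RNA, 15 single-colour arrays in all. The labels call the samples triplicates and do not say that they came from separate cultures, so the p-values measure the spread between these samples, which may be technical.

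A miRNA silences messenger RNAs that pair with its seed, bases 2 to 8 from its 5′ end, so miRNAs with the same seed can act on overlapping targets. The miR-302 cluster is transcribed as one precursor and is characteristic of primed pluripotent cells such as EpiSC, whereas the miR-290 cluster is abundant in naive mouse embryonic stem cells. The miRNAs of both clusters that share a seed are known in mouse embryonic stem cells for speeding the passage from G1 to S phase, among others through the cell cycle inhibitor Cdkn1a, and both clusters are known to be shut down as cells differentiate.

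RefSeq (GRCm38.p6) held the mature sequence of 7 of the 8 miRNAs, all but miR-302a-3p. They are shown because the seed, in capitals, groups miRNAs that can act on overlapping targets, whichever cluster they come from.
miR-302b-3p: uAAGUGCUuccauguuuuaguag
miR-302c-3p: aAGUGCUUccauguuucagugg
miR-302d-3p: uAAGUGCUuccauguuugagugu
miR-294-3p: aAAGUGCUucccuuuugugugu
miR-295-3p: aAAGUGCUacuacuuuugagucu
miR-367-3p: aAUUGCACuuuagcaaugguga
miR-290-5p: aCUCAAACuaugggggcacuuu

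The seed AAGUGCU was shared by 4 of the 7, miR-302b-3p and miR-302d-3p from one cluster and miR-294-3p and miR-295-3p from the other, and was held by 5 of 1679 mature mouse miRNAs in RefSeq (0.298%). The mature miR-302c-3p begins at another base of the same motif, so its bases 2 to 8 differ by a shift. Counting the 6 letters AAGUGC anywhere in the first 9 bases of the given strand, 5 of the 7 held it, against 19 of all 1679 (1.13%). The miR-367-3p seed, AUUGCAC, occurred in 6 of 1679 (0.357%), the others being miR-25-3p, miR-32-5p, miR-92a-3p, miR-92b-3p and miR-363-3p. The seed of miR-290-5p, CUCAAAC, occurred in 3 of 1679 (0.179%), all from the miR-290 cluster. RefSeq lists this 5′ arm of the first hairpin of the cluster as miR-290a-5p.

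In GRCm38.p6 the 5 hairpins of the miR-302 cluster lie within 580 bases of the plus strand, chr3:127545228-127545807, in the order Mir302b, Mir302c, Mir302a, Mir302d, Mir367, inside the span of Larp7, a gene for a binding protein of the 7SK RNA, and of the predicted gene Gm51018. The mature miR-302b-3p lies at chr3:127545275-127545297, miR-302c-3p at chr3:127545406-127545427, miR-302d-3p at chr3:127545665-127545687 and miR-367-3p at chr3:127545779-127545800. The miR-290 cluster lies on the plus strand at chr7:3218626-3220841 and overlaps D7Ertd143e and Nlrp12. The mature miR-290-5p lies at chr7:3218639-3218660, miR-294-3p at chr7:3220691-3220712 and miR-295-3p at chr7:3220815-3220837. Between miR-302b-3p and miR-302d-3p, 17 bases in a row were identical and 3 edits (substitutions, insertions or deletions) turned one into the other. The pairs of miR-302c-3p with these had 16 identical bases in a row and 3 edits each. How far the probes of these near-identical miRNAs share signal was not tested.

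Levels are given as scaled signal: the log2 of a miRNA's background-subtracted fluorescence over the 75th percentile of its array, so that 0 stands for a signal equal to that percentile. The percentile was taken over the 353 probes above background on all 15 arrays. Signals under a common floor of -4.27 were set to it and have no order among themselves. Each miRNA is represented by its brightest probe, and since probes differ in brightness for equal amounts, levels are compared between groups and not between miRNAs. Between 238 and 333 miRNAs were above background per array, the 75th percentile lay between 149 and 337 units of intensity, and no spot used was saturated. Replicate arrays of a group correlated at 0.98 to 0.998 (Pearson's r over the 306 miRNAs tested below, which do not vary independently). The number of arrays limits the precision.

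At day 5, 7 of the 8 miRNAs were above background on all arrays, and the eighth, miR-295-3p, was above it on some. By day 9 only 3 were above background on all treated arrays and 3 on all control arrays. At day 14 these counts were again 3 in treated and 3 in control cells. The miRNAs seen throughout were miR-302d-3p and miR-367-3p, both above background on all 15 arrays, with miR-290-5p above it on 13. The remainder were detected on 8 arrays (miR-302c-3p), 7 (miR-302a-3p), 6 (miR-294-3p), 3 (miR-302b-3p) and 2 (miR-295-3p) of the 15.

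**Figure D1:**
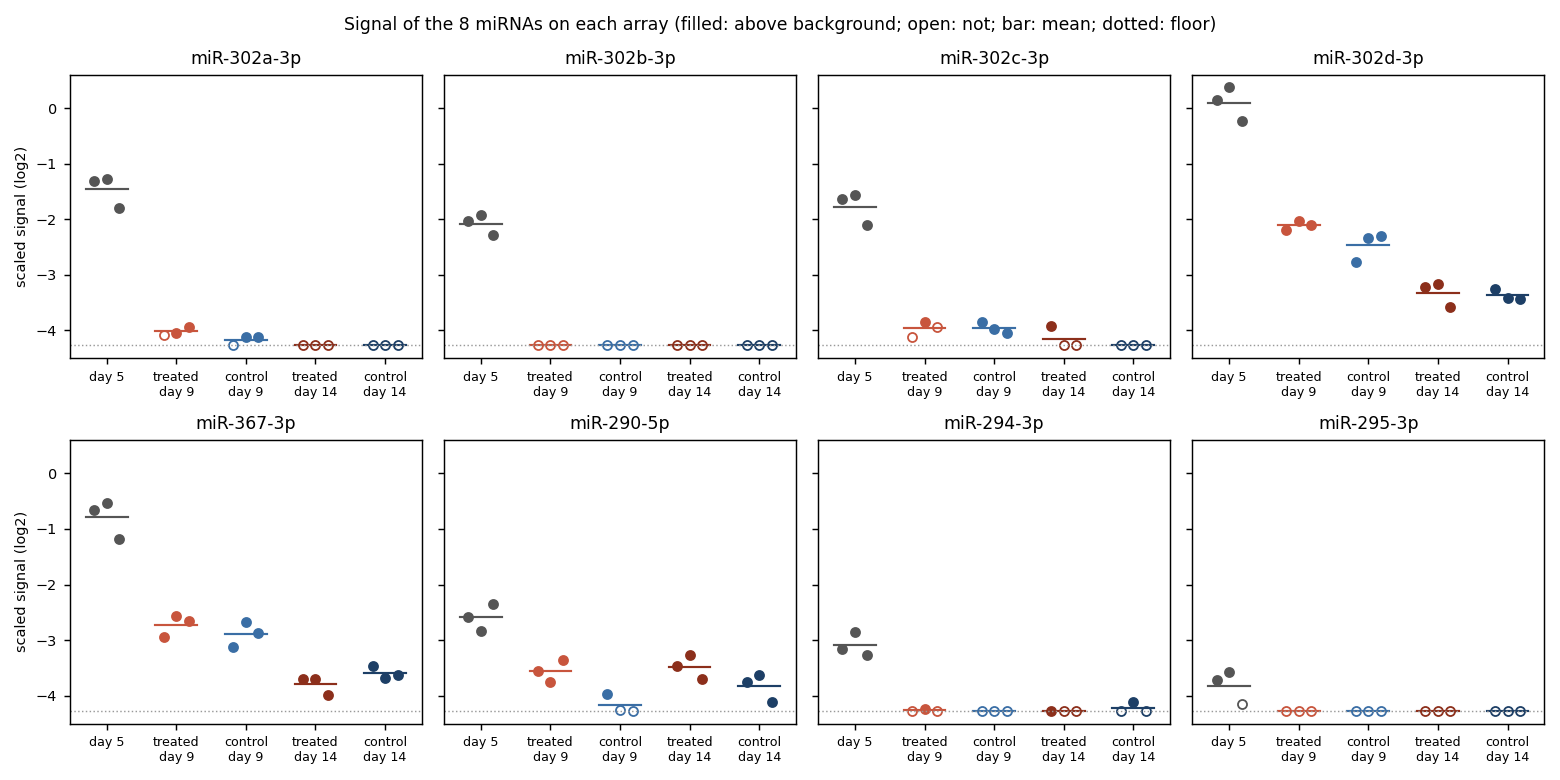
Scaled signal (log2) of the 8 miRNAs on each of the 15 arrays, by group; filled points are above background, open points are not, bars are group means and the dotted line is the floor at -4.27. Every miRNA had its highest group mean at day 5, and miR-302d-3p and miR-367-3p stayed above background on all arrays.

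The member with the widest measurable range was miR-302d-3p, the fourth hairpin of the cluster in genome order. Its scaled signal was 0.14, 0.37 and -0.23 on the day 5 arrays, -2.20, -2.03 and -2.10 in treated cells at day 9, and -2.76, -2.33 and -2.31 in control cells at day 9. At day 14 it was -3.21, -3.17 and -3.58 in treated cells, against -3.26, -3.41 and -3.43 in control cells. Day 5 stood above every later array and both day 9 groups stood above both day 14 groups. The treated and control values lay side by side at day 9 without overlapping, and they overlapped at day 14.

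In the fit of all 306 testable miRNAs (limma, moderated test, Benjamini-Hochberg adjustment over the 306, called below 0.05), miR-302d-3p was 4.6-fold lower in treated cells at day 9 than at day 5 (-2.20 ± 0.16 on the log2 scale, SE, adjusted p = 3.9e-08). In control cells at day 9 it was 5.89-fold lower than at day 5 (-2.56 ± 0.16, adjusted p = 6.9e-09). It fell further to day 14, by 1.21 on the log2 scale in treated cells relative to treated day 9 (adjusted p = 1.4e-05). In control cells at day 14 it fell by 0.9 relative to control day 9 (adjusted p = 0.00025). Against day 5 the day 14 level was 10.6-fold lower in treated and 11-fold lower in control cells. Among the miRNAs above background on all arrays of both groups, its difference ranked 1 from the lowest of 212 in treated cells at day 9, 1 of 201 in control cells at day 9, 1 of 209 in treated cells at day 14 and 2 of 201 in control cells at day 14, each against the same day 5 arrays. This ranking leaves out miRNAs that fell to background on any array, and some of these had larger fitted falls. In treated cells miR-302a-3p differed from day 5 by -2.56 at day 9, and miR-363-3p by -3.91 at day 14.

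The last hairpin of the cluster yields miR-367-3p, which has the seed of the miR-25 and miR-92 family and not that of its neighbours. Its scaled signal was -0.66, -0.54 and -1.18 at day 5, -2.94, -2.56 and -2.66 in treated cells at day 9, and -3.13, -2.67 and -2.87 in control cells at day 9. At day 14 it was -3.69, -3.69 and -3.98 in treated cells, against -3.47, -3.68 and -3.62 in control cells. It showed the same order of days as miR-302d-3p, with overlapping treated and control values at day 9. At day 14 each treated value was below each control value. It was 3.8-fold lower in treated day 9 cells than at day 5 (-1.92 ± 0.17, SE, limma adjusted p = 2.4e-07) and 4.27-fold lower in control day 9 cells than at day 5 (-2.09 ± 0.17, limma adjusted p = 1.1e-07). From day 9 to day 14 it fell by 1.06 in treated cells (limma adjusted p = 6.9e-05) and by 0.7 in control cells (limma adjusted p = 0.0025). Against day 5 it was 7.94-fold lower in treated and 6.95-fold lower in control cells at day 14.

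The other 3 miRNAs of the cluster, miR-302a-3p, miR-302b-3p and miR-302c-3p, came close to or reached the floor by day 9. The first, miR-302a-3p, had scaled signals of -1.31, -1.27 and -1.80 at day 5, -4.08, -4.04 and -3.93 in treated cells at day 9, and -4.27, -4.11 and -4.11 in control cells at day 9. On all day 14 arrays it was at the floor. It was above background on 2 of 3 arrays in each day 9 group, and was 5.88-fold lower in treated and 6.53-fold lower in control cells at day 9 than at day 5 (limma adjusted p = 1.8e-10 and 1.1e-10). Both folds rest in part on arrays where it was not above background, 1 of them at the floor. It entered the test through its day 5 signal, so a fall was the change the filter could show. At day 14, where no array measured it, it was at least 7.02-fold lower in treated and at least 6.78-fold lower in control cells than at day 5. An "at least" fold is set, on each array without a measurement, against the lowest signal that counted as above background there. Where that signal lay below the floor, the floor was used.

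For miR-302b-3p the scaled signals were -2.04, -1.93 and -2.29 at day 5, and it was not above background on any of the 12 later arrays. It was at least 4.03-fold lower in treated cells and at least 4.28-fold lower in control cells at day 9 than at day 5 (limma adjusted p = 1.9e-11 and 2.1e-11). These small p-values rest in part on values set to 1 common floor, which have no spread. For miR-302c-3p the scaled signals were -1.64, -1.57 and -2.11 at day 5, -4.11, -3.84 and -3.94 in treated cells at day 9, and -3.84, -3.98 and -4.04 in control cells at day 9. Of these arrays 1 of 3 treated and 3 of 3 control arrays were above background. Its day 9 level was 4.56-fold lower in treated and 4.53-fold lower in control cells than at day 5 (limma adjusted p = 6.4e-09 and 6.3e-09). The treated fold rests mostly on arrays where miR-302c-3p was not above background. At day 14 it was above background on 1 treated array only, at -3.92.

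The miR-290 cluster, the cluster of naive cells, contributed 3 of the 8 miRNAs, whose signals at day 5 left less room above the floor for a fall to be measured. Its 5′ arm miR-290-5p, which lacks the AAGUGCU seed, had scaled signals of -2.59, -2.83 and -2.35 at day 5, -3.56, -3.76 and -3.36 in treated cells at day 9, and -3.96, -4.25 and -4.27 in control cells at day 9. At day 14 it was -3.47, -3.27 and -3.70 in treated cells, against -3.75, -3.63 and -4.12 in control cells. The day 5 arrays stood above all others, and no further fall followed day 9 in treated cells. In control cells miR-290-5p was above background on 1 of 3 day 9 arrays, which left little room for a further fall to be measured. It was 1.96-fold lower in treated day 9 cells than at day 5 (-0.97 ± 0.16, SE, limma adjusted p = 0.00014) and 2.97-fold lower in control day 9 cells than at day 5 (-1.57 ± 0.16, limma adjusted p = 1.7e-06), where 1 of 3 arrays measured it. Between day 14 and day 9 its difference was 0.08 in treated cells (95% interval -0.27 to 0.43) and 0.33 in control cells (-0.03 to 0.68), with limma adjusted p = 0.69 and 0.11.

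Both other members of the cluster carry the shared seed. The scaled signals of miR-294-3p were -3.16, -2.85 and -3.26 at day 5, and later it was above background on 1 treated day 9, 1 treated day 14 and 1 control day 14 array, at or near the floor. Its fitted log2 difference from day 5 was -1.17 in treated day 9 cells, where 1 of 3 arrays was above background and the others were at the floor, so no fold is given. In control day 9 cells, where no array was above background, it was at least 2.13-fold lower than at day 5 (limma adjusted p = 5.6e-08 for both). For miR-295-3p the day 5 values were -3.72, -3.58 and -4.15, the last not above background, and all later arrays were at the floor, so it was not tested.

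**Figure D2:**
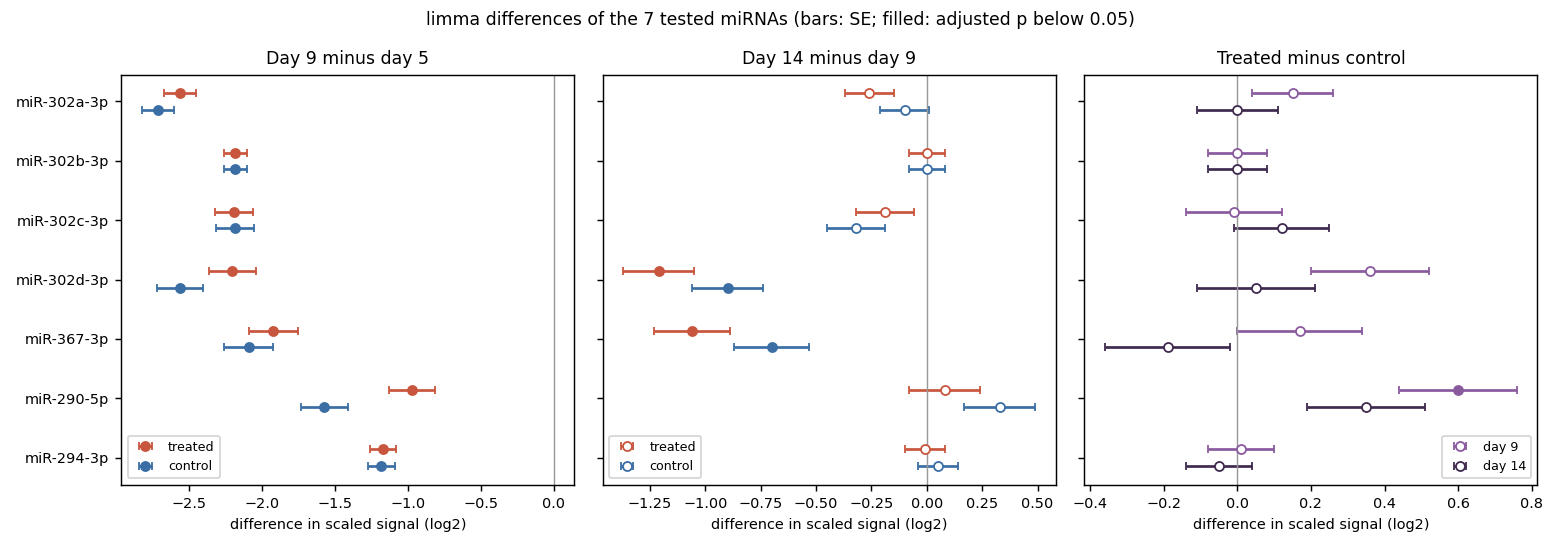
Differences in scaled signal (log2) of the 7 tested miRNAs, with bars for limma's standard error; filled points have an adjusted p below 0.05. All 7 were lower at day 9 than at day 5 in treated and in control cells, and only miR-302d-3p and miR-367-3p were called lower at day 14 than at day 9. Only miR-290-5p was called between treated and control cells, at day 9, and this call was lost under some alternative settings.

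Counted over the members, 7 of 7 tested were called lower in treated cells at day 9 than at day 5, where 21.2% of all 306 tested miRNAs were called lower. Of these, miR-302a-3p, miR-302b-3p and miR-294-3p entered the test only because they were above background at day 5, so a fall was the change the filter could show, and the count is a description. In control cells at day 9 the count was again 7 of 7, where 35% of all tested were called lower. The same 7 were called lower than at day 5 in treated cells at day 14 (24.8% of all tested) and in control cells at day 14 (34.3% of all tested). The median difference of the 7 was -2.18 in treated cells at day 9, against 0.10 for all tested miRNAs, and -2.18 in control cells at day 9, against -0.09 for all. These comparisons share the day 5 arrays. From day 9 to day 14, 2 of the 7 were called lower in treated cells (30.7% of all tested) and 2 in control cells (22.9% of all tested), and both times they were miR-302d-3p and miR-367-3p. The other 5 had little or no range left above the floor at day 9, apart from miR-290-5p in treated cells. In bulk RNA, fewer cells that hold these miRNAs and less of them per cell cannot be told apart.

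The arrays lay on 2 slides. Slide 2 held all control arrays and treated day 14 replicate 3. The remaining arrays, those of day 5, of treated day 9 and of the other treated day 14 replicates, were on slide 1. The change from day 5 to day 9 in treated cells and that from day 9 to day 14 in control cells therefore lay within 1 slide. Using arrays of slide 1 alone, miR-302d-3p differed by -2.20 between treated day 9 and day 5 (limma adjusted p = 2e-05) and miR-367-3p by -1.92 (limma adjusted p = 0.00011). Between treated day 14 and treated day 9, slide 1 alone gave -1.08 for miR-302d-3p and -0.97 for miR-367-3p (limma adjusted p = 0.0011 and 0.0048). Between control day 14 and control day 9, slide 2 alone gave -0.90 and -0.70 (limma adjusted p = 0.0056 and 0.0099). It also called miR-302c-3p lower (-0.32, limma adjusted p = 0.0069), which was at the floor on all 3 control day 14 arrays. That p-value rests in part on values without spread. Only treated day 14 had arrays on both slides, so a slide effect could be estimated only from its replicate 3 against its other replicates. Values with slide as a fixed block, here and below, therefore rest on that 1 array and are no independent check. Between control day 9 and day 5 no slide held both groups. With slide as a fixed block that difference was -2.17 for miR-302d-3p, -1.81 for miR-367-3p and -1.24 for miR-290-5p (limma adjusted p = 4.5e-05, 0.00054 and 0.0049). At day 14 against day 5 the block gave -3.28 and -2.89 for miR-302d-3p and miR-367-3p in treated cells, and -3.07 and -2.51 in control cells, with limma adjusted p = 1.4e-05 or lower.

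The members were covered by 23 probes, of which 18 were above background on all day 5 arrays, and at each of these 18 the day 9 mean was below the day 5 mean in both treated and control cells. These 18 were chosen by their day 5 signal, which favours a fall, and probes of the same miRNA share their arrays. The count is therefore a description. The 2 probes of miR-367-3p differed by -1.92 and -1.96 in treated cells at day 9 from day 5, and by -2.09 and -2.12 in control cells. The 2 probes of miR-302d-3p that gave signal differed by -2.20 and -2.19 in treated cells, and by -2.56 and -2.71 in control cells, where the dimmer probe came close to the largest fall that the floor allows. A total of 3 probes, 2 of miR-302b-3p and 1 of miR-302d-3p, were not above background on any array. Within a miRNA, dimmer probes reached the floor sooner: miR-302a-3p differed by -2.56 at its brighter probe and by -1.61 at its dimmer one in treated cells, and the dimmer one ended at or next to the floor. The size of a fall that ends at the floor is therefore a lower limit.

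**Figure D3:**
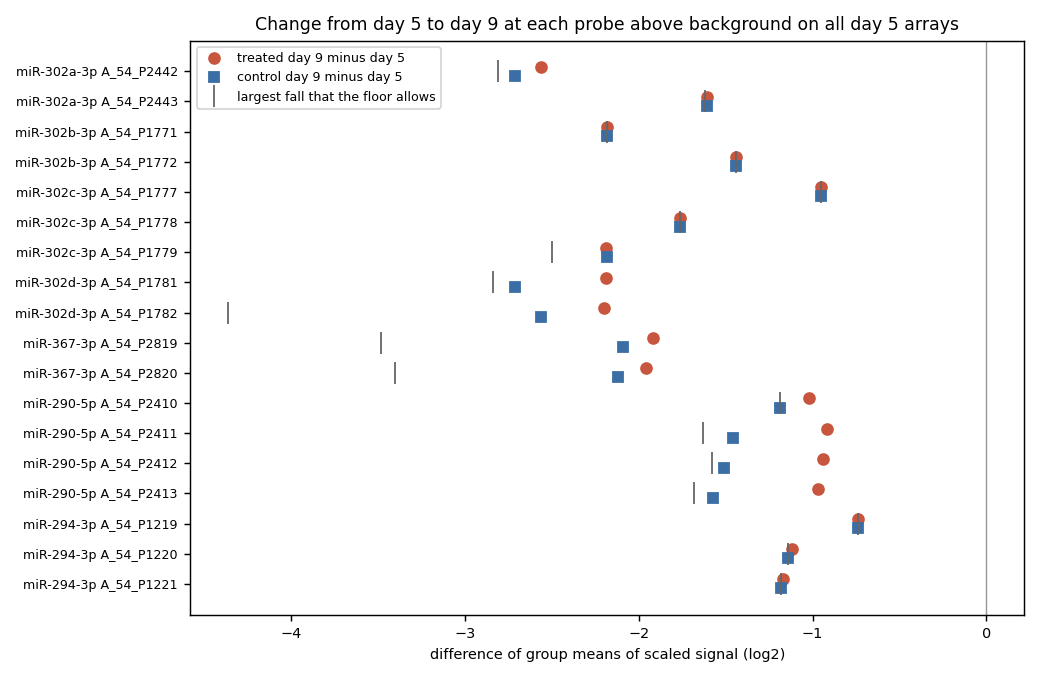
Difference of group means of scaled signal (log2) between day 9 and day 5 at the 18 probes that were above background on all day 5 arrays, with treated cells as circles, control cells as squares and a vertical tick for the largest fall that the floor allows. All 18 probes lie below 0 in both, and only those of miR-302d-3p, miR-367-3p, miR-290-5p, 1 of miR-302a-3p and 1 of miR-302c-3p stop clearly short of their tick in treated cells.

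With treated set against control cells at the same day, which asks whether SHH and FGF8 changed the loss of these miRNAs, 1 of the 7 tested miRNAs was called at day 9 (55.6% of all tested were called, 40.5% higher and 15% lower). It was miR-290-5p, 1.52-fold higher in treated cells, where 3 of 3 arrays were above background, than in control cells, where 1 of 3 was (0.60 ± 0.16, SE, limma adjusted p = 0.0068). All miRNAs together had a median difference of 0.25 in this comparison under the scaling used. The 4 probes of miR-290-5p differed by 0.17, 0.54, 0.56 and 0.60. This call was lost with quantile normalization (0.12, limma adjusted p = 0.59), with the 75th percentile taken over all mouse probes (0.04, limma adjusted p = 0.88) and with slide as a fixed block (0.27, limma adjusted p = 0.59). Slide and treatment cannot be told apart within the day 9 arrays, since each group lies on a slide of its own. The block takes its slide effect from the treated day 14 arrays alone.

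For miR-302d-3p the treated minus control difference at day 9 was 0.36 (95% interval 0.01 to 0.70, limma adjusted p = 0.075), for miR-367-3p 0.17 (-0.19 to 0.53, limma adjusted p = 0.41) and for miR-302a-3p 0.15 (-0.09 to 0.39, limma adjusted p = 0.27). The first 2 changed sign with slide as a fixed block (-0.03 and -0.12), and all 3 changed sign under quantile normalization. The difference of miR-302c-3p was -0.01 (-0.30 to 0.28, limma adjusted p = 0.99). Under quantile normalization and under the percentile over all mouse probes it was called lower in treated cells, by -0.50 (limma adjusted p = 0.013) and -0.59 (limma adjusted p = 0.0038). For miR-302b-3p both groups were below background, so no difference could be measured.

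At day 14, 0 of the 7 were called between treated and control cells in the limma fit (53.9% of all tested were called, 39.2% higher and 14.7% lower), and 1 had an unadjusted p below 0.05. Without treated replicate 3, or without control replicate 2, miR-290-5p was called higher in treated cells (0.46 and 0.45, limma adjusted p = 0.042 and 0.048). The differences were 0.05 for miR-302d-3p (95% interval -0.30 to 0.39), -0.19 for miR-367-3p (-0.55 to 0.17) and 0.35 for miR-290-5p (0.00 to 0.71), with limma adjusted p = 0.87, 0.37 and 0.085. With slide as a fixed block they were -0.21, -0.39 and 0.13. Slide 2 alone gave the same 3 values from a single treated array, whose spread had to be taken from the control arrays, so it adds no separate check. Under quantile normalization miR-302d-3p and miR-367-3p were called lower in treated cells (-0.40 and -0.62, limma adjusted p = 0.049 and 0.014). The difference between the day 14 and day 9 treatment effects was called in 0 of the 7 (32.7% of all tested) by limma, and 0 had an unadjusted p below 0.05. For miR-302d-3p it was -0.31 (-0.80 to 0.18), for miR-367-3p -0.36 (-0.87 to 0.15) and for miR-290-5p -0.25 (-0.74 to 0.25).

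Ratios of 2 miRNAs on the same array do not depend on the scaling of the array as long as both lie above the floor, and their change shows unequal change of the pair. They were formed for the 3 miRNAs measured most often. In control cells at day 9 miR-290-5p was above background on 1 of 3 arrays and at or next to the floor on the others, so ratios over it there rest mostly on unmeasured values. The log2 ratio of miR-302d-3p over miR-290-5p was 2.68 ± 0.54 at day 5, 1.45 ± 0.24 in treated cells and 1.69 ± 0.44 in control cells at day 9, and 0.16 ± 0.08 in treated cells and 0.47 ± 0.23 in control cells at day 14 (SD, n = 3 each). In treated cells each day's arrays stood apart from the next, and in control cells the day 14 arrays stood apart from day 5. That of miR-302d-3p over miR-367-3p, from neighbouring hairpins, was 0.89 ± 0.08 at day 5, 0.61 ± 0.12 in treated and 0.42 ± 0.12 in control cells at day 9, and 0.46 ± 0.06 in treated and 0.23 ± 0.04 in control cells at day 14. The change of the first ratio between treated day 14 and day 5 was -2.52 and that of the second -0.42. By the exact permutation test (two-sided, 3 arrays against 3) each had p = 0.1, the smallest this design allows, and 0.133 after adjustment over the 24 comparisons of ratios made.

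**Figure D4:**
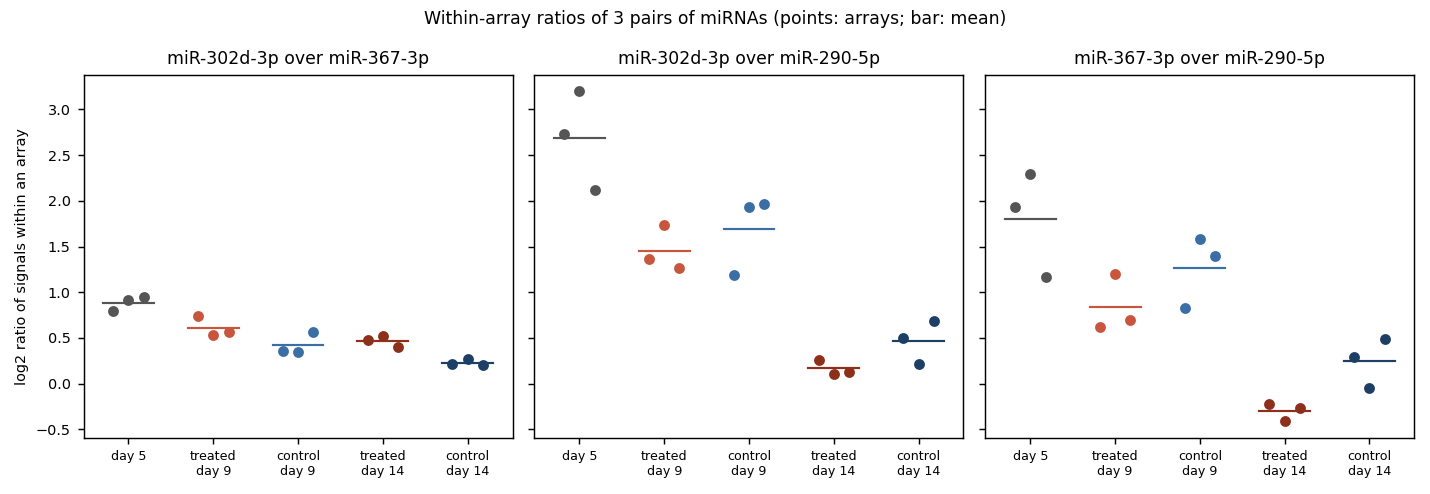
Log2 ratio of the signals of 2 miRNAs on the same array, for 3 pairs and 5 groups; points are arrays and bars are group means. The ratio of miR-302d-3p over miR-290-5p had a mean of 2.68 at day 5, 1.45 in treated and 1.69 in control cells at day 9, and 0.16 in treated and 0.47 in control cells at day 14; in control cells at day 9 miR-290-5p was above background on 1 of 3 arrays.

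The array also holds 16 other miRNAs of the 2 clusters, the opposite arms and the remaining miRNAs of the miR-290 cluster, and 3 of them were above background on any array. The naive-cell miRNAs miR-291a-3p and miR-292-3p were above it on 1 array each, day 5 replicate 2, with intensities of 16.9 and 14.3 that lay below the common floor after scaling. That array also had the highest 75th percentile, 337, against 160 and 149 on the other day 5 arrays. The third, miR-291b-5p, was above background on 6 arrays spread over day 5, treated day 9, treated day 14 and control day 14, at scaled signals of -3.53 or lower. None of the 16 was tested. Of the markers listed for primed cells, 5 of 5 were above background on all day 5 arrays. Of those listed for naive cells, miR-290-5p and miR-294-3p were above it on all 3, miR-295-3p on 2, miR-291a-3p and miR-292-3p on 1 each and miR-293-3p on none.

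Relatives of the members by seed lie outside the clusters. The 5 measured miRNAs whose seed holds the same AAGUGC core, miR-17-5p, miR-20a-5p, miR-20b-5p, miR-93-5p and miR-106b-5p, belong to miR-17 family clusters that promote proliferation in many cells. In treated cells at day 9, 4 of these 5 were called lower than at day 5 (21.2% of all tested) with differences of -1.11 to -0.12, beside -2.56 to -0.97 for the 7 tested members. In control cells at day 9, 4 of 5 were called lower (35% of all tested) with differences of -1.47 to -0.11. From day 9 to day 14 all 5 were called lower in treated cells (-1.29 to -0.64, where 30.7% of all tested were called lower) and in control cells (-1.25 to -0.62, where 22.9% were). By day 14 all 5 were called lower than at day 5 in treated (24.8% of all tested) and in control cells (34.3%). In treated against control cells 1 of the 5 was called higher at each day, miR-17-5p at day 9 (40.5% of all tested were called higher) and miR-93-5p at day 14 (39.2%), both named after their values were seen. This share is below that of all tested miRNAs. The differences ran over -0.01 to 0.36 at day 9 and over -0.04 to 0.24 at day 14, and 0 of the 5 were called for a difference in treatment effect between days (32.7% of all tested).

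Of the 5 miRNAs with the miR-367-3p seed, only miR-32-5p rose at first, and only in treated cells. Its difference was 0.23, near the floor, and it was above background on 1 of 3 day 5 arrays. At day 9, 3 of the 5 were called lower than at day 5 in treated cells (21.2% of all tested) and 1 higher (37.6%). In control cells at day 9, 5 were called lower than at day 5 (35%). From day 9 to day 14, 4 were called lower in treated (30.7%) and 4 in control cells (22.9%). On all later arrays other than treated day 9, miR-32-5p was at the floor. Its difference of -0.22 from day 5 in these groups therefore ended there. By day 14 all 5 were called lower than at day 5 in treated (24.8% of all tested) and in control cells (34.3%). The largest fitted change among them was that of miR-363-3p, which comes from a miR-17 family cluster on the X chromosome. Its scaled signal averaged -0.36 ± 0.03 at day 5, -2.37 ± 0.05 in treated and -2.30 ± 0.16 in control cells at day 9, and -4.27 in treated cells, with 1 of 3 arrays above background, and -3.86 ± 0.05 in control cells at day 14 (SD, n = 3 each). In treated cells at day 14 it was at the floor on all 3 arrays, so no fold is given (limma adjusted p = 1.5e-14 against day 5). In control cells at day 14 it was 11.3-fold lower than at day 5 (limma adjusted p = 3.9e-14). Between treated and control cells at day 14 the largest difference in this list was that of miR-92b-3p. It was 2.06-fold higher in treated cells (1.05 ± 0.16, SE, limma adjusted p = 9.9e-05). At day 9 the largest was that of miR-32-5p, at least 1.29-fold higher in treated cells (limma adjusted p = 4.6e-06). This miRNA entered the test only through its treated day 9 signal, and all 3 control day 9 arrays were at the floor. Its small p-value therefore rests in part on values without spread. In all, 2 of the 5 were called higher and 1 lower in treated cells at day 9 (40.5% and 15% of all tested), and 1 higher and 2 lower at day 14 (39.2% and 14.7%). The treatment effect differed between days in 3 of the 5 (32.7% of all tested), the largest such difference being that of miR-92b-3p (0.98 ± 0.22, SE, limma adjusted p = 0.0049).

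For each tested member, the 2 miRNAs outside the 8 whose scaled signal was most correlated with it over all 15 arrays are given. For miR-302a-3p, miR-302b-3p, miR-302c-3p and miR-294-3p they were miR-18b-5p (Pearson's r = 0.996, 0.996, 0.99 and 0.988) and miR-221-3p (0.99, 0.991, 0.977 and 0.977), both near or at the floor after day 5. Among the members themselves, miR-302d-3p and miR-367-3p had a Pearson's r of 0.994 with each other. Outside the 8, those nearest to miR-302d-3p were miR-17-5p (0.975) and miR-20a-3p (0.96), and for miR-367-3p miR-17-5p (0.965) and miR-363-3p (0.962). For miR-290-5p they were miR-877-5p (0.954) and miR-874-3p (0.916). The mean of miR-877-5p was -2.27 ± 0.23 at day 5, -3.47 ± 0.13 in treated and -4.24 ± 0.05 in control cells at day 9, and -3.76 ± 0.33 in treated and -4.05 ± 0.31 in control cells at day 14 (SD, n = 3 each). These coefficients are descriptions: the arrays fall into 5 groups and share their scaling, and values at the floor raise them.

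Markers of other cells moved over the same days. The summed scaled signal, on a linear scale, of the 5 neuronal miRNAs miR-124-3p, miR-9-5p, miR-9-3p, miR-128-3p and miR-138-5p lay between 3.92 and 4.22 on the day 5 arrays. At day 9 it was 7.68 to 8 in treated and 13.5 to 15.2 in control cells, and at day 14 it was 14.8 to 17.3 in treated and 23.8 to 28.1 in control cells. All 5 were above background on some array. Of 2 miRNAs linked to midbrain dopaminergic neurons in the literature, miR-133b-3p was not above background on any array and miR-7a-5p was above it on all 15. Of the striated muscle markers 0 of 3 were above background on any array, of the mesenchyme markers 1 of 4 (miR-199a-3p) and of the endoderm markers 1 of 4 (miR-375-3p). The last 2 were above background on the 6 treated arrays and no others. The endoderm sum was therefore that of miR-375-3p alone. In treated cells it was 0.65 to 0.716 at day 9 and 0.38 to 0.458 at day 14, against 0 in control cells. The other endoderm markers, miR-122-5p, miR-192-5p and miR-194-5p, were not above background on any array. Whether these markers stand for other cells, and what part such cells have in the values of the 8 miRNAs, was not tested.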

How the data were processed

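Small RNA was labelled with Cy3 and hybridized to Agilent mouse miRNA arrays, per the labels' protocols. The deposited scanner tables give spot signals as intensity, background-subtracted and not normalized between arrays, per the file headers (Feature Extraction 11.0.1.1). The flag columns (unit other, per the file headers) mark with 0 or 1 whether a spot was above background, saturated or an outlier. The deposited value table, also intensity, was an alternative; its columns for replicates 1 and 2 of treated day 14 repeat each other (86% of probes equal within 0.1%) and were counted as 1. Version 3.20.9 of limma stands in the submitters' processing notes with no role given.

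Spots that were not outliers were averaged per probe (3.81% to 5% of spots per array were outliers). A probe was above background where at least 50% of its spots were flagged so. Of 1122 miRNAs (2847 probes), 306 passed the filter (every array of some group above background) and were fitted over all 5 groups in limma 3.58.1 (R 4.3.3, jsonlite 2.0.0, and version 1.17.8 of the data.table package; 10 residual and 3.03 prior degrees of freedom), checked on simulated data. Intervals are 95%. Figures were made in Python 3.11.15 using numpy 2.4.6, pandas 2.3.3 and matplotlib 3.10.9. Alternatives changed the scaling, background correction (normexp, offset 50, on median spot signals where mean signals had been planned), filter, floor, probe summary, slide, pairing and replicates. Named besides the 8 were any cluster miRNA above background, the seed relative with the largest called change in a comparison, and the 2 miRNAs most correlated with each tested member. Members, lists and comparisons were chosen with earlier results of these data known, and the ratios within arrays after seeing the data.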

Additional observations from a re-analysis of the deposited data

How the results depend on the processing

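Of 57 differences of single members recomputed under up to 30 alternatives, 1111 values in all, 1024 kept their direction and their side of the threshold, 20 were no longer called, 21 became called and 46 changed sign. Against day 5 no difference changed sign (526 values, 517 of them with the same call); the 9 lost calls were those of miR-290-5p and miR-294-3p with a floor 4 times higher, which put both groups at the floor, and that of miR-290-5p in treated cells at day 9 with normexp (-0.40, limma adjusted p = 0.055). The cause of the other changes was not tested. Requiring a miRNA to be above background on all 15 arrays left only miR-302d-3p and miR-367-3p in the fit, so the counts called lower than at day 5 became 2 of 2 in each comparison, and 0 were called between treated and control cells at day 9.

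At day 9, between treated and control cells, 0 members were called with normexp (miR-290-5p 0.16, miR-302c-3p 0.02), without a filter on dim miRNAs (miR-290-5p 0.60, limma adjusted p = 0.057), with the higher floor and with slide as a fixed block (miR-302d-3p -0.03, miR-367-3p -0.12), and 2 with the mean over probes, miR-290-5p and miR-302d-3p. With the percentile over all mouse probes and with quantile normalization the 1 call was miR-302c-3p, lower in treated cells. With the percentile over all mouse probes the difference was -0.31 for miR-302a-3p, -0.24 for miR-302d-3p, -0.42 for miR-367-3p and -0.11 for miR-294-3p. With quantile normalization these were -0.23, -0.03, -0.31 and -0.05. With median scaling it was -0.08 for miR-302a-3p, -0.11 for miR-367-3p and -0.01 for miR-294-3p. Leaving out 1 array at a time gave -0.07 to 0.06 for miR-302c-3p and 1 call each time.

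At day 14, between treated and control cells, 1 member was called with the percentile over all mouse probes and with the scanner software's total gene signal (miR-367-3p, lower), and 1 with the mean over probes (miR-290-5p, higher). Quantile normalization called 2. The difference of miR-302d-3p was -0.33 with the percentile over all mouse probes, -0.40 with quantile normalization, -0.16 with median scaling, -0.10 with normexp, -0.07 with the total gene signal, -0.21 with slide as a fixed block and on slide 2 alone, and -0.06 in the deposited value table. That of miR-302c-3p was -0.02 with the percentile over all mouse probes and -0.14 with normexp, and that of miR-290-5p was -0.02, -0.07 and -0.01 with the percentile over all mouse probes, quantile normalization and normexp. Leaving out 1 array at a time gave 0 to 1 calls, the 1 being miR-290-5p without treated replicate 3 (0.46) or control replicate 2 (0.45), and -0.03 to 0.17 for miR-302d-3p. The dependence of the treatment difference on day changed sign for miR-302a-3p (0.31, 0.23 and 0.08 with the percentile over all mouse probes, quantile normalization and median scaling), miR-294-3p (0.01 with the first and the last of these) and miR-302c-3p (-0.16 with normexp), with 0 calls throughout.

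Between treated day 14 and treated day 9, normexp called 5 members lower and the higher floor 0, and 3 were called with the total gene signal and in the deposited value table, where miR-302a-3p was added (-1.12 and -0.38, limma adjusted p = 4.6e-05 and 0.04). The difference of miR-290-5p was -0.13 with median scaling, -0.12 with normexp, -0.15 with the total gene signal, -0.04 in the deposited value table and -0.03 to 0.19 when 1 array was left out. Between control day 14 and control day 9, normexp called 1 (miR-302d-3p), the higher floor 0 and the total gene signal 5, of which miR-290-5p was higher. The percentile over all mouse probes, quantile normalization and median scaling called 3, adding miR-302c-3p (-0.65, -0.55 and -0.53). This miRNA was also called with the total gene signal (-1.01). It was called too on slide 2 alone (-0.32), where all 3 control day 14 arrays were at the floor. The difference of miR-294-3p was -0.01 with the percentile over all mouse probes and with median scaling, and -0.05 with normexp. Without control day 14 replicate 3, 3 members were called instead of 2, with miR-290-5p higher (0.47).

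The count of members above background on all arrays at day 9 became 6 in treated and 6 in control cells if 1 flagged spot sufficed, and 6 and 5 by the software's flag for the whole miRNA. If all spots had to be flagged, it was 3 in treated and 2 in control cells at day 9, 2 and 2 at day 14, and 6 in place of 7 at day 5. Of 30 pairs of same-numbered arrays from different groups, 11 correlated above 0.1 in their deviations from the group means (range -0.571 to 0.525). Day 5 with treated day 14 was the only pair of groups with all 3 above 0.1 (0.371, 0.119 and 0.206), so the numbers were not taken to pair the samples of the series. A replicate block left the counts of called members as they were, 7 in each comparison with day 5, 2 in each between day 14 and day 9, and 1 at day 9 and 0 at day 14 between treated and control cells.

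Over all tested miRNAs, normexp called 78 at day 9 and 58 at day 14 between treated and control cells, against 170 and 165, and 21 for the dependence on day, against 100. Slide as a fixed block called 75 and 107 of them. The share of higher calls at day 9 was 124 of 170, and became 41 of 162, 65 of 154 and 72 of 157 with the percentile over all mouse probes, quantile normalization and median scaling. At day 14 it was 120 of 165, and became 37 of 114, 69 of 134 and 76 of 140. For treated day 9 against day 5, normexp called 101 in place of 180. Signal over background limits miR-294-3p, miR-295-3p and, after day 5, miR-302a-3p, miR-302b-3p and miR-302c-3p, whose later changes could not be measured.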
